A study of Mus musculus with 6 samples.

Results

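The genes described here are 71 chromatin regulators of the mouse whose symbols begin with Kmt, Kdm, Chd, Smarc, Arid, Hdac, Setd or Brd, measured in macrophages grown from the bone marrow of mice kept in cigarette smoke or in room air. They were all genes of these 8 symbol families, apart from the Y-linked Kdm5d, whose group means averaged at least 50 normalized counts in the authors' gene table. Of 84 genes of that kind 71 passed this minimum, out of 19386 genes in all. The level thus decided which genes are members. The difference between the groups did not, but the families were chosen with earlier results of these data known. Both are therefore given as a description with no test. Under the label of chromatin remodellers and histone methylation enzymes, the symbols also brought in 8 histone deacetylases, the BET bromodomain readers, DNA-binding ARID proteins, Setd3, which methylates a histidine of actin, and Kmt2e, for which no methyltransferase activity is established.

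All animals were C57BL/6 and wild type per the labels; age, sex and the length of exposure are not given in the sources used here. Marrow cells freed of erythrocytes were cultured in 10% L929 cell supernatant, a source of macrophage colony-stimulating factor, and collected on day 11, so both groups share this culture and every cell measured grew outside the animal. There were 3 libraries from room air and 3 from cigarette smoke mice, and the cells taken from the same animals before culture are not analysed here. Gene expression came as 1 mean per group, in counts divided by size factors, and splicing as a percentage for each event in each library.

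Chromatin remodellers use ATP to slide, evict or exchange nucleosomes, while methyltransferases and demethylases write and erase methyl groups on histone lysines that mark promoters, enhancers, transcribed bodies or silent DNA. Deacetylases remove acetyl groups, and bromodomain proteins bind them. In macrophages these systems are known for setting which enhancers open during differentiation and how strongly inflammatory genes respond.

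The cultures carried macrophage markers. The lowest of the 11 macrophage markers listed averaged 375 normalized counts over both groups, and their sum was 63840 in room air and 66300 in smoke. Lyz2, the highest, averaged 24000 and weighs heavily in the sum. The log2 fold changes of the single markers lay between -0.713 and 0.511, and 0 had a DESeq2 adjusted p under 0.05. Of other cell types, 4 of 10 neutrophil markers were analysed here and summed to 0.322 and 0.509, 4 of 6 B cell markers to 6.68 and 4.14, and 3 of 5 dendritic cell markers to 1.29 and 1.02. All 7 stromal markers summed to 45.6 and 10.7. Each of the remaining lists was represented by a single gene, Klf1 for erythroid cells (0 and 0.509), Cd4 for T cells (29.0 and 22.4) and Kit for mast cells or basophils (54.5 and 47.9). In a mixture, fewer cells of a type and less RNA per cell cannot be told apart. A list of Malat1, Neat1 and the 2 mitochondrial ribosomal RNAs summed to 66030 in room air and 22960 in smoke, and its part in the members' values was not tested.

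Most members were lower after smoke, by small amounts. Of the 71 genes in the authors' deposited table, 57 had a negative log2 fold change, called lower here, and 14 a positive one, and the median, smoke over room air, was -0.22 with quartiles of -0.38 and -0.05. Over the 9021 genes of the same minimum mean, 51.2% were lower and the median was -0.01. The authors' adjusted p, from DESeq2, was under 0.05 for 14 members, all lower, which is 19.7% of the 71. The same threshold held in either direction for 7.69% of the 12082 genes with an adjusted p and in the lower direction for 3.53% and in the higher for 4.15% of them. Of the 9021 genes of at least the minimum mean, 4.32% passed in the lower and 4.66% in the higher direction. Since the families were chosen with earlier results of these data known, nothing is read from the count. By size, 29 members (40.8%) were lower by more than 0.25 on the log2 scale and 2 (2.82%) were higher by more than that, against 21.2% and 20.4% of the 9021 genes. Within 1 standard error of 0 lay 25 members (35.2%) and 45% of those genes.

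**Figure D1:**
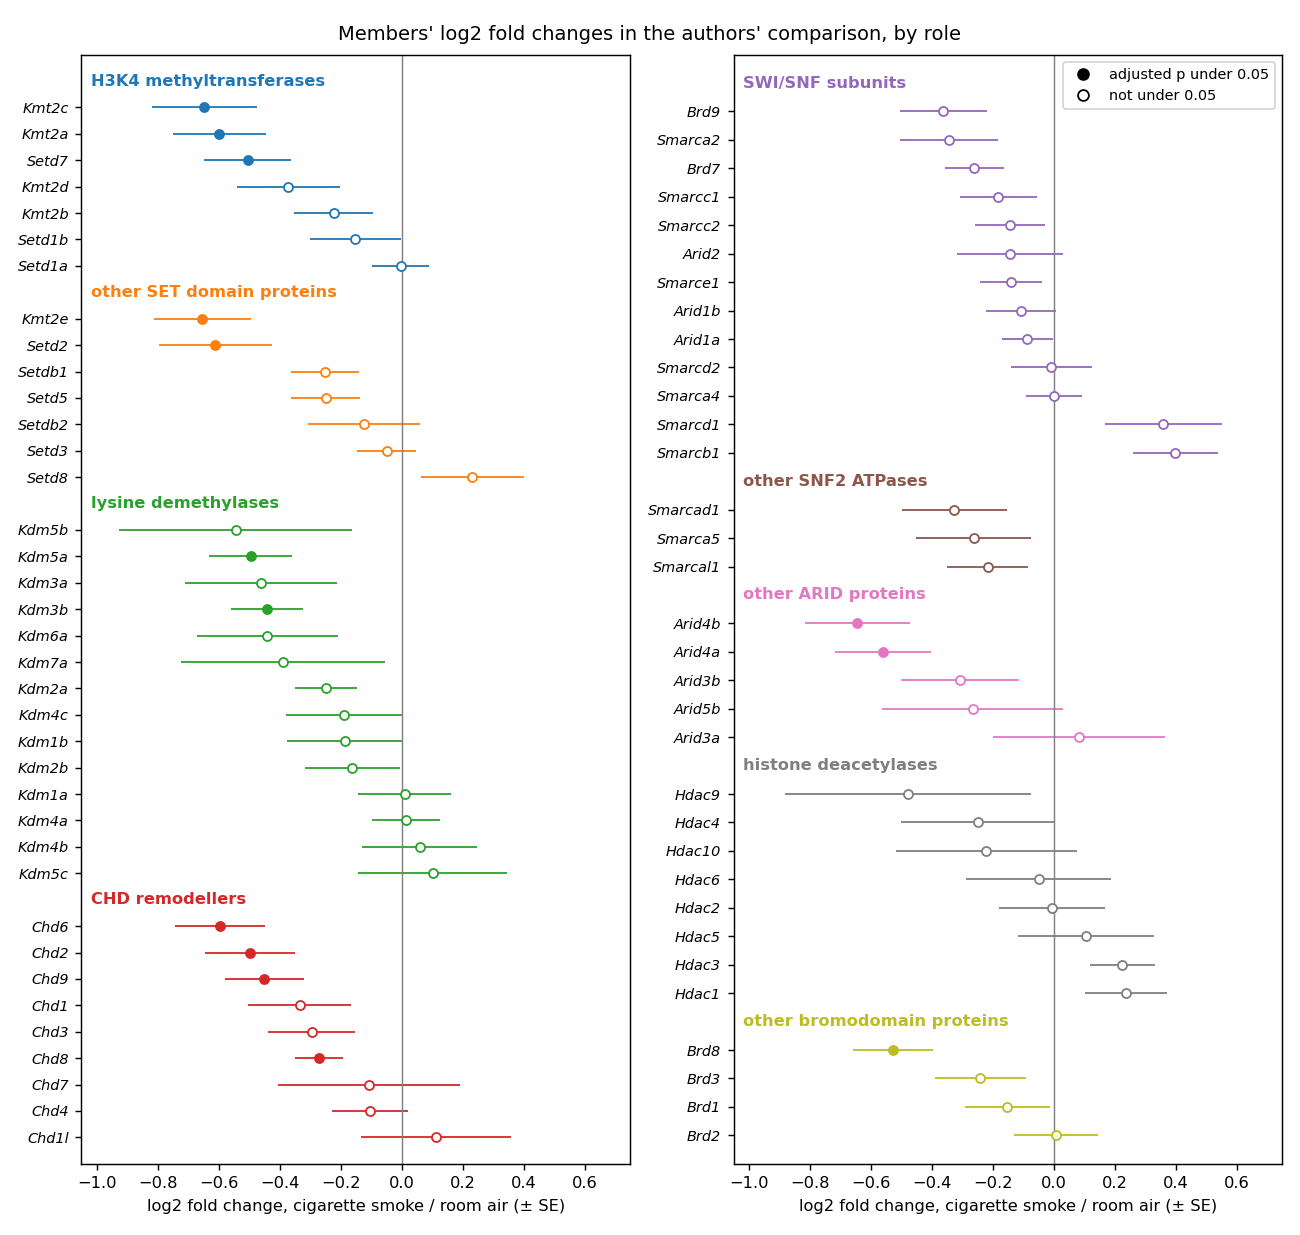
Log2 fold change, cigarette smoke over room air, of the members named here with the standard error of the authors' comparison (horizontal bars), grouped by role. Filled points have an adjusted p under 0.05: all 14 lie left of 0, and the points farthest right are Smarcb1 and Smarcd1.

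The enzymes that methylate lysine 4 of histone H3, the mark of promoters and enhancers, were all lower (7 of 7, median log2 fold change -0.37). Kmt2c, on chr5:25271798-25498783 of GRCm38, encodes an enhancer monomethyltransferase, and the authors' deposited table gave it 578 normalized counts in room air and 366 in smoke. Its log2 fold change was -0.65 ± 0.17 (SE; DESeq2 adjusted p = 0.00701 in the authors' deposited table). Kmt2a, the founding MLL gene, had means of 528 and 345 there (-0.60 ± 0.15, adjusted p = 0.00431 in the authors' deposited table). Setd7, which also methylates non-histone proteins, had 498 and 347 (-0.50 ± 0.14, adjusted p = 0.0114 in the authors' deposited table). The remaining 4 did not pass. Kmt2d, the close relative of Kmt2c with the highest mean of the Kmt genes, had 983 and 755 in the authors' deposited table (-0.37 ± 0.17, adjusted p = 0.158). Kmt2b stood at -0.22 ± 0.13, the highest value among the Kmt genes of the authors' deposited table. Setd1a, a catalytic subunit of the promoter complex COMPASS, was level at 401 and 400.5 (-0.003 ± 0.093 in the authors' deposited table); 51.8% of its exonic bases are shared with an annotated gene on the same strand, so its counts are uncertain.

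Among the other SET domain proteins 6 of 7 were lower (median -0.25). Kmt2e, which binds methylated lysine 4 through its PHD finger, had the lowest fold change of all 71: 825 normalized counts in room air and 522 in smoke (-0.65 ± 0.16, DESeq2 adjusted p = 0.00261 in the authors' deposited table). Setd2, the enzyme of trimethylated H3 lysine 36 over transcribed genes, had 664 and 432 (-0.61 ± 0.19, adjusted p = 0.0214 in the authors' deposited table). Setd5, the Setd gene with the highest mean, had 763 and 640 (-0.25 ± 0.11, adjusted p = 0.156 in the authors' deposited table). Setd8, now named Kmt5a and the monomethyltransferase of H4 lysine 20, was the member of this group with the higher mean in smoke, 380 against 447 (0.23 ± 0.17, adjusted p = 0.438 in the authors' deposited table).

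Of the lysine demethylases 10 of 14 were lower (median -0.22). Kdm5a, an eraser of H3 lysine 4 methylation, had 441 normalized counts in room air and 308 in smoke (-0.50 ± 0.13, DESeq2 adjusted p = 0.00864 in the authors' deposited table). Kdm3b, an eraser of H3 lysine 9 methylation, had 718 and 529 (-0.44 ± 0.12, adjusted p = 0.00796 in the authors' deposited table), with 24.6% of its exonic bases opposite another annotated gene. Kdm5b had the lowest fold change of the family but few counts, 71.7 and 47.7 (-0.54 ± 0.38, adjusted p = 0.418 in the authors' deposited table). Kdm2a, a demethylase of H3 lysine 36 with the highest mean of the family, had 776 and 652 (-0.25 ± 0.10, adjusted p = 0.110 in the authors' deposited table). Kdm5c, at the upper end, had 486 and 521 (0.10 ± 0.24, adjusted p = 0.865 in the authors' deposited table).

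Of the CHD remodellers, SNF2-type helicases of which most read histone tails through paired chromodomains, 8 of 9 were lower (median -0.29) and 4 passed. Chd6 had 280 normalized counts in room air and 184 in smoke (-0.59 ± 0.15, DESeq2 adjusted p = 0.00332 in the authors' deposited table). Chd2 had 452 and 317 (-0.50 ± 0.15, adjusted p = 0.0175 in the authors' deposited table), with 18.4% of its exonic bases shared with another gene on its strand. Chd9 had 432 and 317 (-0.45 ± 0.13, adjusted p = 0.0140 in the authors' deposited table). Chd8 had a smaller but more precise difference, 845 and 703 (-0.27 ± 0.08, adjusted p = 0.0142 in the authors' deposited table). Chd4, the main ATPase of the nucleosome remodelling and deacetylase complex NuRD, had the highest level of all members, 2546 and 2366 (-0.10 ± 0.12, adjusted p = 0.684 in the authors' deposited table). Chd1l, which has no chromodomain, was the exception in direction, with 59.6 and 62.3 (0.11 ± 0.24, adjusted p = 0.848 in the authors' deposited table).

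Of the SWI/SNF subunits 10 of 13 were lower, the median was -0.14 and none passed the authors' threshold. The 2 alternative ATPases of the complex stood apart in value. Smarca4 (BRG1) was level at 902 and 902 normalized counts (0.00 ± 0.09 in the authors' deposited table), and Smarca2 (BRM) had 416 and 328 (-0.34 ± 0.16, DESeq2 adjusted p = 0.174 in the authors' deposited table); the difference between the 2 genes was not tested. The core subunit Smarcb1 had the highest fold change of all members, 148 against 198.5 (0.40 ± 0.14, adjusted p = 0.0525 in the authors' deposited table), and Smarcd1 followed with 96.0 and 122 (0.36 ± 0.19, adjusted p = 0.248 in the authors' deposited table). The scaffold subunit Smarcc2 had the highest mean of the Smarc genes, 1239 and 1124 (-0.14 ± 0.12 in the authors' deposited table), and Arid1a, the defining subunit of the BAF form, the highest of the Arid genes, 817 and 770 (-0.09 ± 0.08 in the authors' deposited table). Brd9 and Brd7, subunits of the other forms of the complex, stood at -0.36 ± 0.14 and -0.26 ± 0.10 (DESeq2 adjusted p = 0.0944 and 0.0683 in the authors' deposited table). The 3 SNF2 ATPases outside the complex, Smarca5, Smarcad1 and Smarcal1, lay between -0.33 and -0.22 in the authors' deposited table, and none passed.

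Outside the SWI/SNF complex 4 of 5 ARID proteins were lower. Arid4b and Arid4a, partners in the Sin3 deacetylase complex, both passed: Arid4b had 284 normalized counts in room air and 180 in smoke (-0.64 ± 0.17, DESeq2 adjusted p = 0.00696 in the authors' deposited table). Arid4a had 403 and 270.5 (-0.56 ± 0.16, adjusted p = 0.0117 in the authors' deposited table). Arid3a, a DNA-binding factor, had the highest fold change of the Arid genes, with means of 150 and 156 (0.08 ± 0.28, adjusted p = 0.907 in the authors' deposited table).

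The histone deacetylases were the group nearest to 0, with 5 of 8 lower, a median of -0.03 and none past the threshold. Hdac1, a catalytic subunit of the NuRD, Sin3 and CoREST complexes, had 370 and 441 (0.24 ± 0.13, DESeq2 adjusted p = 0.282 in the authors' deposited table). Hdac9, of the class that shuttles between nucleus and cytoplasm, had 196 and 142 but a wide error (-0.48 ± 0.40, adjusted p = 0.524 in the authors' deposited table). Hdac5, of the same class and with the highest mean of the Hdac genes, had 403 and 434 (0.11 ± 0.22, adjusted p = 0.838 in the authors' deposited table).

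Of the other bromodomain proteins, Brd8, a subunit of the TIP60 acetyltransferase complex, passed with 368 and 254.5 normalized counts (-0.53 ± 0.13, DESeq2 adjusted p = 0.00385 in the authors' deposited table). The BET protein Brd2 was level at 1280 and 1283 (0.01 ± 0.14, adjusted p = 0.982 in the authors' deposited table), and its relative Brd3 stood at -0.24 ± 0.15 in the authors' deposited table.

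**Figure D2:**
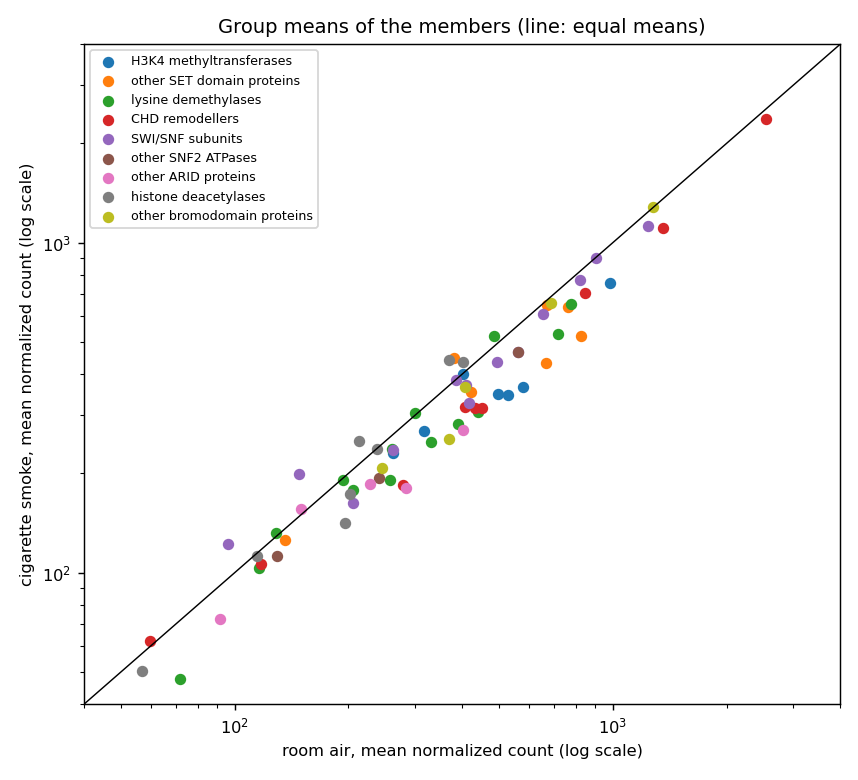
Mean normalized count of each member in cigarette smoke (vertical axis, log scale) against room air (horizontal axis, log scale), coloured by role, with a line of equal means. Most points lie just under the line over the whole range of levels, from Hdac10 and Kdm5b at the lower end to Chd4 at the upper end.

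Divided by the length of the longest protein-coding transcript, the members' levels spanned a wide range. Chd4 was highest with 380 normalized counts per kilobase in room air and 353 in smoke, followed by Brd2 with 275 and 276 and Smarcc2 with 271 and 246. Kdm5b was lowest with 8.23 and 5.47 per kilobase. Setd3 had 243 and 235 per kilobase, above every methyltransferase of histones among the members. Exonic bases opposite another annotated gene also made up 22.4% in Hdac4, 12.7% in Smarcd1, 9.78% in Brd2, 9.31% in Kmt2e and 5.77% in Chd8, and without knowing whether counting used strand these levels are uncertain. At the minimum of 50, Hdac10 (mean of both groups 53.8), Kdm5b (59.7) and Chd1l (61.0) were just inside, and Arid5a (47.8) and Setd6 (40.8) just outside; the log2 fold change of Arid5a was 0.66 ± 0.30 in the authors' deposited table. The other genes outside included Kdm6b, an eraser of H3 lysine 27 methylation, at 17.9 and 25.7 normalized counts in room air and smoke.

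Members are long transcripts, and the members' differences followed length and GC content as those of other genes did. The median length was 5864 nt among members and 3232 nt among all genes of the minimum mean, while the median GC content was 50.2% and 49.7%. The rank correlation (Spearman's rho) of fold change and length was -0.54 across the 71 members and -0.50 across 9017 genes, and with GC content 0.55 and 0.56; these are descriptions across genes of the same libraries, which are not independent replicates. The 36 members at or above the median length had a median of -0.31 and held 12 of the 14 past the threshold, and the 35 shorter ones had -0.14 and 2. The median length was 8430 nt for the 14 members past the threshold and 3942 nt for the 14 that were higher in smoke. With the mean level the same rho was -0.08.

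**Figure D3:**
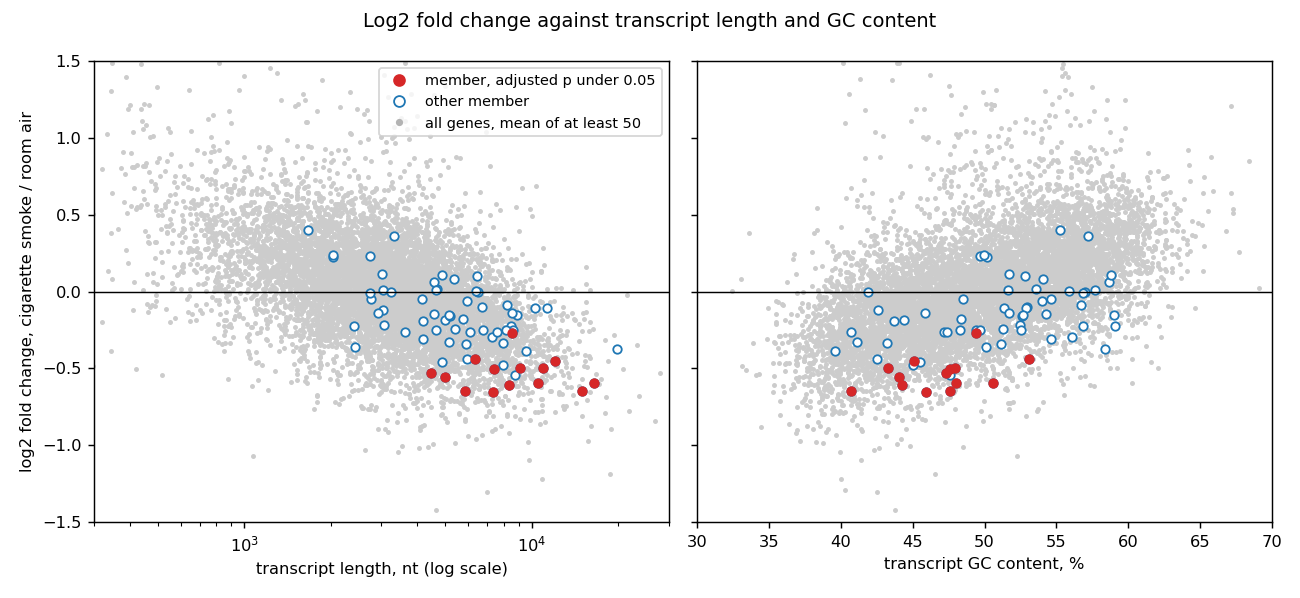
Log2 fold change, cigarette smoke over room air, against transcript length (left, log scale) and transcript GC content (right), for members past the authors' adjusted p (red), other members (open blue) and all genes of a mean of at least 50 (grey; values beyond 1.5 are outside the frame). The red points lie at the long end, within the lower part of the grey cloud.

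When a smooth trend in length and GC content, fitted over all 12071 genes with the values needed, was subtracted, the members moved toward 0 and kept a lower median. The trend-removed log2 fold change was negative for 52 of 71, against 50.6% of all genes of the minimum mean, and its median was -0.10 among members and -0.004 among those genes. Counted from these values and the deposited standard errors by a normal approximation with Benjamini-Hochberg adjustment, 0 members were past an adjusted p of 0.05, and 153 of the 12071 genes (1.27%). At an unadjusted p under 0.05 there were 10 of 71 members (14.1%) and 1311 genes (10.9%); as with the deposited contrast, this is a description and nothing is read from it. Among the members past the authors' threshold, Kdm3b was at -0.38 and Brd8 at -0.41. All 14 members past the authors' threshold stayed negative, with a median of -0.31. Kmt2e was at -0.40, Kmt2c and Kmt2a both at -0.31, and all 7 H3 lysine 4 methyltransferases remained below 0 (median -0.24). The remodellers Chd9 and Chd8, in contrast, moved to -0.09 and -0.07, and Kdm5a to -0.11. Smarcb1, at the upper end, moved from 0.40 to 0.16, but to 0.57 where the longest transcript of any type, a form with a retained intron, gave its length and GC content.

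**Figure D4:**
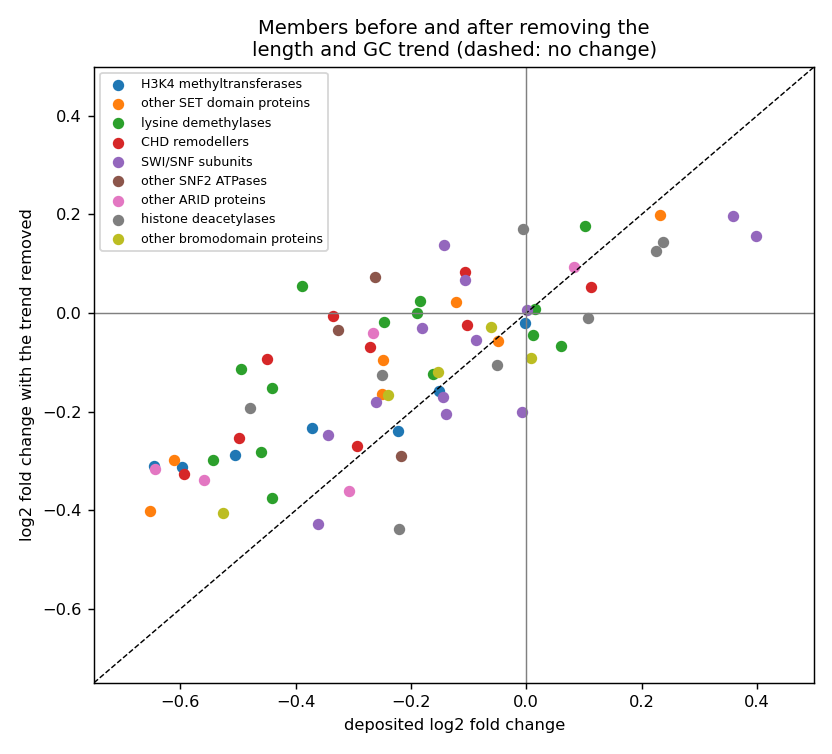
Log2 fold change of each member with the length and GC trend removed (vertical axis) against the deposited log2 fold change (horizontal axis), coloured by role; the dashed line marks no change. Most points on the left lie above the dashed line, closer to 0, and 52 of 71 lie below the horizontal line at 0. Of these, 48 are among the 57 members with a negative deposited value and 4 among the 14 with a positive one.

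Other chromatin genes of 9 lists outside the 8 families gave the setting. Of 156 with a mean of at least 50, 90 were lower after smoke (57.7%). Their median log2 fold change was -0.07, and -0.04 with the length and GC trend removed. Of the 156, 15 lower and 5 higher ones (12.8% together) had a DESeq2 adjusted p under 0.05 in the authors' deposited table. Over all genes of that minimum mean, 4.32% passed in the lower and 4.66% in the higher direction. The counts varied by list, and differences between lists were not tested. Of the INO80, SRCAP and ISWI genes 14 of 22 were lower and 5 passed, with Atrx at -0.78 ± 0.18 the lowest in the authors' deposited table, and of the acetyltransferases 17 of 24 were lower, with Crebbp at -0.55 ± 0.13. The partners of the H3 lysine 4 methyltransferases, non-catalytic subunits such as Wdr5 and Men1, were split, with 6 of 13 lower, a median of 0.13 and none past the threshold. Their median transcript length was 3307 nt, against 8857 nt for the H3 lysine 4 methyltransferases themselves. With the length and GC trend removed, the medians were -0.0055 for the partners and -0.24 for the methyltransferases, and the difference was not tested. Of the other histone methyltransferases, which include the arginine enzymes, 13 of 19 were higher, with Prmt7 at 0.75 ± 0.22 the highest in the authors' deposited table and Nsd1 at -0.66 ± 0.15 the lowest. In the remaining lists, 18 of 27 Polycomb genes, 8 of 9 DNA methylation genes and 6 of 8 other JmjC proteins were lower. So were 4 of 8 further SWI/SNF partners and 11 of 26 corepressor and NuRD genes.

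The RefSeq table of promoters on GRCm38.p6 held 51 of the 71 members by symbol. In the 250 bases before the start, the letters GGGCGG on either strand, the core of the GC box, were found in 35 of these 51 (68.6%) and in 32.7% of 32851 promoters of any gene, and CCAAT on either strand in 16 (31.4%) and 33.8%. The median GC content of the window was 62.0% and 52.4%. A single promoter was taken per member, while the 32851 were all promoters listed, with no minimum level of the gene, so the sets are unlike. The windows of the members with the lowest and the highest fold change among the 51 are printed below as examples, 5′ to 3′ on the gene's strand, with GGGCGG of either strand in capitals. Both hold it, while that of Arid4b, next to Kmt2c at the lower end, holds CCAAT and not GGGCGG. Kmt2c lies at chr5:25498784-25499033 and Smarcb1 at chr10:75921615-75921864, both on the minus strand.
Kmt2c promoter: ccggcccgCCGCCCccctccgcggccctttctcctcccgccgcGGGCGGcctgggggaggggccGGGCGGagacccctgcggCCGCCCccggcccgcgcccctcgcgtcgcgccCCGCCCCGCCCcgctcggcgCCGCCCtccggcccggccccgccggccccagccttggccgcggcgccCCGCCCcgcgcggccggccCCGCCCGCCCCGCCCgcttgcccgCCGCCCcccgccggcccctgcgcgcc
Smarcb1 promoter: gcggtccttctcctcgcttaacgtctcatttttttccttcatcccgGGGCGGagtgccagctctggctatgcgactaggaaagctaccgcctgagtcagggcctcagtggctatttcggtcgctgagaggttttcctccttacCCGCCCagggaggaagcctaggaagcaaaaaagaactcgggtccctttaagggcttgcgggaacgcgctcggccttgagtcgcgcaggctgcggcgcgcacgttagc

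Splicing gave a measure that had no part in the rule that set the members. JuncBASE, a program that compares reads over alternative junctions, listed 79 events in 23 of the 71 members, most in Chd3 (11) and Chd4 (8), and gave the percentage of reads with the included form in each library. By limma on log2 odds with a pseudocount of 1 percentage point and Benjamini-Hochberg adjustment over 10376 events, 0 of the 79 had an adjusted p under 0.05 (lowest 0.162), and 0 of all events had (0.0%). At an unadjusted p under 0.05 there were 11 of the 79 (13.9%) and 10.8% of all events. Leaving out cigarette smoke replicate 3 gave 6 members' introns past the adjusted threshold by limma, in Chd3, Chd4, Chd8 and Hdac5, of 41 events, and 717 of all 6018; leaving out any other library gave 0 in members.

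Retained introns made up 10 of those 11 events, and 690 of the 1125 such events of all genes. These were 40% of the members' retained introns and 20.9% of all retained introns. Mean retention was lower in the smoke libraries. Of 25 retained introns in 14 members 24 had a lower mean in smoke (96.0%), as did 89.9% of the 3305 introns of all genes. Over the 13 with a value in every library, the mean retention in the room air libraries was 6.19%, 6.88% and 5.47%, and in the smoke libraries 0.919%, 1.05% and 3.995%. The groups did not overlap, and smoke replicate 3 was nearest to room air. Room air averaged 6.18% ± 0.70 (SD, n = 3) and smoke 1.99% ± 1.74 (SD, n = 3), which is -4.19 percentage points apart. Over all 1992 introns with 6 values the difference was -4.23, but from a higher level, 15.67% in room air and 11.44% in smoke. The similar differences in points are thus not similar relative changes. The smoke libraries all lay under the room air libraries in 8 of the 13 introns (61.5%), and in 38.7% of the 1992.

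**Figure D5:**
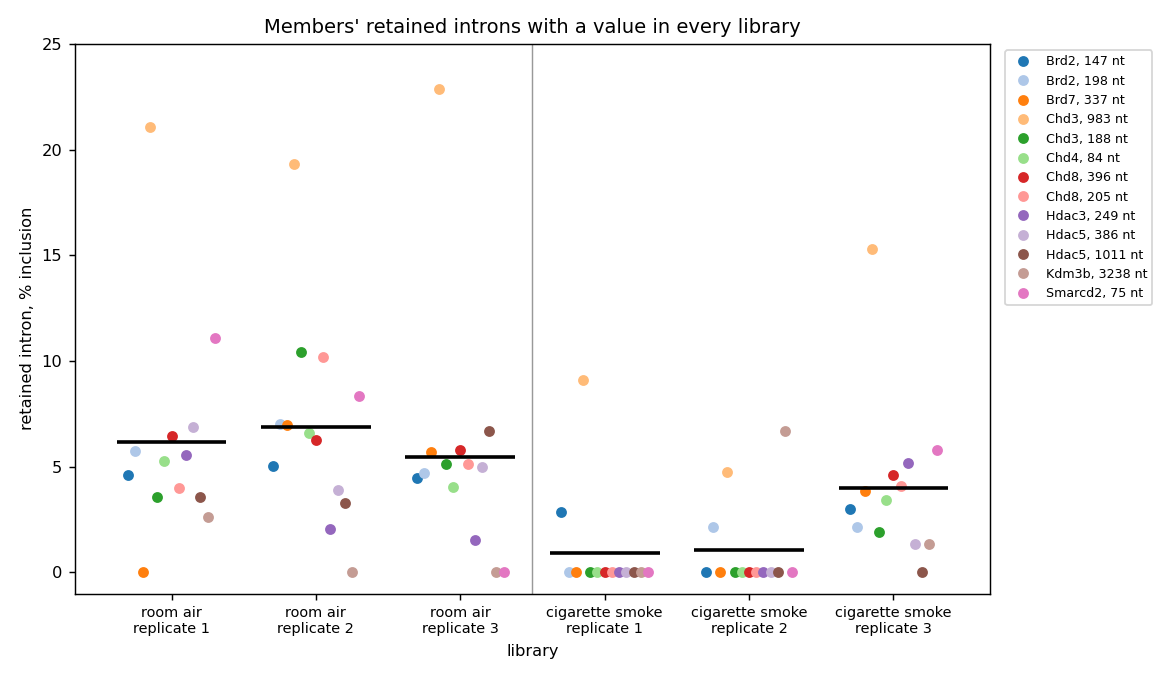
Percent inclusion of the 13 members' retained introns that have a value in every library, by library; each colour is 1 intron, named by its gene and length, and black bars are the means of the 13. Most introns are at 0 in cigarette smoke replicates 1 and 2, and the Chd3 intron of 983 nt is highest in every library but cigarette smoke replicate 2.

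Libraries differed in how much was measured. Smoke replicate 1 had no value for 37 of the 79 events, and each other library for at most 3; smoke replicate 2 had 0% for 21 of the 25 introns. No read numbers behind the percentages were used here, so the depth of each value is unknown and a listed 0 is not the absence of the retained form. The part of depth in the lower retention was not tested. The difference was -4.78 percentage points without smoke replicate 1, over 23 introns, and -3.72 without smoke replicate 2.

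The 5 events with the lowest p in limma were these. The 1011-nt intron of the deacetylase Hdac5 at chr11:102197786-102198796, between coding exons, was at 3.57%, 3.28% and 6.67% in room air and at 0% in each smoke library (log2 odds difference -2.48, 95% interval -3.60 to -1.35, limma adjusted p = 0.162). A second Hdac5 intron, at chr11:102196673-102197058, was at 6.90%, 3.92% and 5.00% in room air and 0%, 0% and 1.33% in smoke (limma adjusted p = 0.206). Both Hdac5 introns were lower in every smoke library, while the mean expression of the gene differed little. The 6874-nt intron of Smarca4 at chr9:21679148-21686021 was at 5.00%, 7.69% and 3.23% in room air and 0% in smoke replicates 2 and 3, with no value in replicate 1 (limma adjusted p = 0.204). The 188-nt intron of Chd3 at chr11:69348522-69348709 was at 3.57%, 10.4% and 5.13% in room air and 0%, 0% and 1.92% in smoke (limma adjusted p = 0.287). The remaining event was a choice between acceptors of Brd1 (chr15:88688477-88689508), seen from junction reads alone, at 100% in each room air library and 90.9% and 97.1% in smoke replicates 2 and 3 (limma adjusted p = 0.227). None of the 5 passed the threshold.

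Higher retention was found in another intron. The 983-nt intron of Chd3 at chr11:69345635-69346617 was at 21.05%, 19.3% and 22.9% in room air and 9.09%, 4.76% and 15.3% in smoke (-11.4 percentage points, limma adjusted p = 0.458), with no overlap. The exception among the 25 was the 3238-nt intron of Kdm3b, at 2.63%, 0% and 0% in room air and 0%, 6.67% and 1.33% in smoke.

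The introns' sequences were read where an annotated GENCODE M21 transcript keeps the intron inside an exon. This was so for 12 of the 25, and all 12 begin with GT and end with AG. Those printed are from the remodellers Chd4 and Chd8 and from Brd2, as examples of short introns with values in the text, 5′ to 3′ on the gene's strand with the bases of the splice sites in capitals.
Chd4 intron: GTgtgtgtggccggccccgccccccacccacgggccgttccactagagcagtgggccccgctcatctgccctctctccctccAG
Chd8 intron: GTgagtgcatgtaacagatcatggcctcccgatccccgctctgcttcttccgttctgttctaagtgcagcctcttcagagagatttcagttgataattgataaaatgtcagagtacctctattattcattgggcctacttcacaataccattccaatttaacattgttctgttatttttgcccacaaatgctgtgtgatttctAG
Brd2 intron: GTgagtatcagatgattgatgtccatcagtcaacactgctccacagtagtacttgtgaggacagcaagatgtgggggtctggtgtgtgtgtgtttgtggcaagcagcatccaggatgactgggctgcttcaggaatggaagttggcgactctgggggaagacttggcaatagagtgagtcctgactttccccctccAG

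The Chd4 intron (chr6:125120386-125120469), of 84 nt and 72.6% GC, was at 5.26%, 6.59% and 4.04% in room air and 0%, 0% and 3.42% in smoke, every smoke value lower (limma adjusted p = 0.403). Its length is a multiple of 3, and a protein-coding transcript of Chd4 keeps it as coding sequence. The Chd8 intron (chr14:52204585-52204789), of 205 nt, was at 4%, 10.2% and 5.13% and at 0%, 0% and 4.08%, so 1 smoke value lay above 1 room air value (limma adjusted p = 0.417). The Brd2 intron (chr17:34112979-34113176), of 198 nt, was at 5.75%, 7.02% and 4.72% and at 0%, 2.17% and 2.16%, without overlap (limma adjusted p = 0.397).

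Other kinds of event showed little separation. Of 28 with 6 values, 1 was lower and 1 higher in every smoke library, where 9.46% and 5.66% of all such events were; over events of any type with 6 values, 9 of 41 were lower (19.3% of all) and 1 higher (3.84% of all). The higher one was an alternative acceptor of Arid1a that adds 3 bases, at 5.00%, 4.65% and 3.12% in room air and 10.0%, 8.33% and 5.56% in smoke (limma adjusted p = 0.526) when exon reads were counted. By junction reads alone the same acceptor was at 13.6%, 8.89% and 6.06% in room air and 10%, 15.4% and 10.5% in smoke, with overlap (limma adjusted p = 0.733). The lower one was an acceptor of Chd3 at the 188-nt intron named above, with which it shares bases; by junction reads alone it was at 6.90%, 10.4% and 5.13% in room air and 0%, 11.1% and 5.56% in smoke, with overlap (limma adjusted p = 0.666). The alternative segments of 3 remodeller genes, printed next in capitals between 15 flanking bases on each side, are examples, chosen after their values were seen, of several that change coding sequence by whole codons.
Chd4 segment: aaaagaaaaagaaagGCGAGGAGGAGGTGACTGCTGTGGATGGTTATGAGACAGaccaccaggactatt
Smarca4 segment: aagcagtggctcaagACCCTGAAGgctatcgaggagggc
Smarcb1 segment: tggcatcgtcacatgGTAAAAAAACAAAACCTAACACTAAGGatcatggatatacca

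The Chd4 segment of 39 nt follows an alternative acceptor, and its junction-read level was 62.5%, 64.5% and 53.4% in room air and 50%, 55.6% and 53.7% in smoke (-7.07 percentage points, limma adjusted p = 0.666), with overlap. The Smarca4 segment of 9 nt was at 29.6%, 36.8% and 28.6% in room air and 32.3% and 40.7% in smoke replicates 2 and 3 by junction reads (limma adjusted p = 0.808). The Smarcb1 segment of 27 nt precedes an alternative donor, and was at 53.3%, 32.1% and 37.9% in room air and 36.4% and 40% in smoke replicates 2 and 3 (limma adjusted p = 0.917). The groups overlapped for Smarca4 too, and for Smarcb1 both smoke values lay within the room air range. A cassette exon of Setd3 of 149 nt was at high inclusion in every library, with 81.1%, 84.8% and 88.4% in room air and 88.2%, 82.1% and 82.4% in smoke (-0.48 percentage points, 95% interval of the log2 odds difference -1.21 to 1.11).

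A second table of retained introns, from rMATS, compares 2 sets of samples whose groups are not named, so no direction is given. In the authors' deposited table of rMATS results 42 introns lay in 26 members, and 4 had a false discovery rate under 0.05 (9.52%, against 14.5% of 3887 introns). These were introns of Kdm1a (1207 nt, difference between the sets 3.7 percentage points, false discovery rate 0.00777), Brd8 (1177 nt, 10.2 points, 0.0146), Setdb1 (1080 nt, 9.3 points, 0.0249) and Hdac10 (103 nt, -7.4 points, 0.0429) in the authors' deposited table. The Setdb1 intron was also in the JuncBASE table, at 21.4%, 21.7% and 23.1% in room air and 0% and 15% in smoke replicates 2 and 3 (limma adjusted p = 0.479).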

How the data were processed

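RNA of 6 macrophage cultures, 3 room air and 3 cigarette smoke, was sequenced from directional libraries per the labels' protocols. The submitters' processing notes name STAR, DESeq2, SAMtools 1.9, bedtools 2.27.1 and the build mm10, without roles; whether counting used strand is not given in the sources used here. The members, role groups and gene lists were chosen with earlier results of these data known. The authors deposited a gene table with, per the file headers, mean normalized counts per group and over 24 libraries (a signal divided by size factors; 18 of the libraries are not in this series), and p-values with adjusted p-values. The log2 fold change in the authors' table comes, per the file headers, with its standard error, made by the authors before deposit. The Wald score in the authors' deposited table is the ratio of these. The spread of libraries outside this series may have entered those errors. JuncBASE percent inclusion per library, and p-values, were also deposited by the authors, as was an rMATS table with differences as a fraction; 6 of its columns of per-sample values were not used. No depth per library could be taken from these values. Titles alone separate replicates, so the limma p-values measure the spread between these samples. The authors' DESeq2 p-values may also hold the spread of the 18 libraries outside this series. Genes were matched without ID version to GENCODE M21 (GRCm38; 71 of 71 members). Length and GC content were those of the longest protein-coding transcript, or of the longest transcript where a gene had none. A trend in both (natural splines with 4 degrees of freedom each, weighted by the standard errors; statsmodels 0.14.6, patsy 1.0.2) was fitted over all genes with an adjusted p. Events with a value in at least 2 libraries of each group were tested with limma 3.58.1 in R 4.3.3 on log2((p + 1)/(100 - p + 1)) for a level p in percent. Both fits were tested on simulated data. Named are, per symbol family, the members with the highest and lowest fold change and the highest mean, all past the threshold, those beside the minimum of 50, the 5 events of lowest p and the rMATS introns past the false discovery rate; other genes and introns were chosen after their values were seen. The replicate numbers in the titles were not used as pairs. Values of 1 member, which is kept in the counts, are not reported here.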

Additional observations from a re-analysis of the deposited data

How the results depend on the processing

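The count of members lower after smoke, 57, lay between 45 of 53 at a higher minimum mean and 59 (of 77 at a lower minimum, and of 71 by the ratio of group means), and their median between -0.25 and -0.10. The count past the authors' adjusted p, 14, was 14 at both other minimums and 17 at a threshold of 0.1. It was 0 with the length and GC trend removed, and 1 (Smarcb1, higher, log2 fold change 0.57 against 0.16 in the first fit) where the longest transcript of any type was used, an alternative chosen after seeing the data. The 0 JuncBASE events in members became 3 with a pseudocount of 0.1 percentage points (241 of all events by limma); the cause was not tested. Leaving out 1 library gave 0 to 6 events and a retention difference of -5.19 to -3.72 percentage points. The latter was -11.4 for introns with a mean of at least 10%, where 1 intron was left. The rMATS count of 4 became 1 at a false discovery rate under 0.01 and 1 with a difference of at least 10 percentage points. With the replicate block limma called 0 events in members (lowest adjusted p 0.609). Correlations of same-numbered libraries' deviations were 0.018, -0.040 and -0.089. These values show no shared deviation in splicing, but cannot tell whether same-numbered samples were handled together. Levels without read numbers limit all splicing values.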
